A study of Homo sapiens with 4 samples.

Results

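The genes described here encode secreted inflammatory and senescence-associated factors: chemokines, interleukins, growth factors, insulin-like growth factor (IGF) binding proteins, matrix proteases and the inhibitors and activators that control them. They were chosen by symbol from a list of 42 genes. All 42 had a row in each of the 4 libraries, and 26 had a mean over the libraries of at least 30 normalized fragment counts and are called measured, out of 12742 measured genes among 42113 gene models in all. Just inside that limit were IL11, with a mean of 33.1, and CCL2, with 33.5, and just outside were PLAT, with 21.7, and IL32, with 20.6.

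The cells were A549, an established human lung adenocarcinoma line with wild-type p53, carrying a lentiviral short hairpin RNA (shRNA) in all groups. The 4 groups, with 1 library each, were LIMA1 shRNA cells with nutlin-3a, control shRNA cells with nutlin-3a, LIMA1 shRNA cells left untreated and control shRNA cells left untreated. Nutlin-3a, given at 10 µM for 24 h, frees p53 from its inhibitor MDM2, and LIMA1 encodes an actin-binding protein. The stated question was whether knockdown of LIMA1 alters gene activation by p53. A stable line with 1 hairpin was used on each side, so an effect of the hairpin and a lasting difference between the lines cannot be told apart. With 1 library per group there was no replicate and no test, every difference compares libraries, and intervals cover counting error only.

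Cells that stop dividing for good often release such factors, a state called the senescence-associated secretory phenotype. In human fibroblasts it is driven mainly by the transcription factors NF-kB and C/EBP-beta, with interleukin 1 acting on the same cell, and p53 is known there to hold it back. It also changes what neighbouring cells meet: chemokines draw in neutrophils and monocytes, proteases open the matrix, and IGF-binding proteins control access of IGF to its receptor.

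The libraries held 15.2 to 16.7 M fragments, so their depth was close. LIMA1 stood at 133 normalized counts in LIMA1 shRNA cells and 866 in control shRNA cells with nutlin-3a, and at 68.3 and 416 untreated. CDKN1A, a cell-cycle inhibitor gene and p53 target, was 40.9-fold higher with nutlin-3a in LIMA1 shRNA cells and 32.0-fold higher in control shRNA cells, so the labels and these genes went together. The 6 epithelial markers were all measured, with KRT8 between 67927 and 82811. They were not steady between groups: EPCAM had 31.1 normalized counts in LIMA1 shRNA cells and 111 in control shRNA cells with nutlin-3a, against 82.1 and 229 untreated, and KRT19 had 5840 and 3420 with nutlin-3a, against 2061 and 1278 untreated. The part of this in the members' values was not tested. Of 5 endothelial markers 0 were measured, and of 6 leukocyte and macrophage markers 2 were, CD14 and CD68, while PTPRC had at most 1 fragment in any library.

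Differences are between log2(normalized count + 1) values, so that 1 is close to a 2-fold difference, and a gene is called higher or lower at 1 or more in size. With nutlin-3a, 5 of the 26 measured members were higher in LIMA1 shRNA cells, where 7.29% of all measured genes were, and 4 were lower, against 6.08% of all genes. In control shRNA cells 6 were higher, against 5.54% of all genes, and 2 were lower, against 5.64%. The median difference of the members was 0.26 in LIMA1 shRNA cells and 0.28 in control shRNA cells, beside -0.02 over all measured genes in both. By role, 2 of the 4 measured growth factors were called higher in each line and 0 lower, while 0 of the 5 measured neutrophil-attracting (ELR) chemokine genes were called higher and 3 were called lower in LIMA1 shRNA cells, against 1 in control shRNA cells.

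Between the cell lines 17 of the 26 measured members differed beyond counting error with nutlin-3a and 20 untreated. Few of these differences reached 1, and the share of all measured genes beyond counting error was not computed. With nutlin-3a, 0 of 26 were higher with the LIMA1 hairpin than with the control hairpin, against 1.26% of all genes, and 3 were lower, against 1.94%. Untreated, 1 was higher, against 1.04%, and 3 were lower, against 2.05%. Of the 3 lower members, CCL2 and IL11 were under 30 normalized counts in both LIMA1 shRNA libraries. They passed the filter only through the control shRNA libraries, so they had to be lower with the LIMA1 hairpin and these counts support nothing. With a mean of at least 150, 1 was lower at each treatment, IGFBP7. Its mean of 154 passed that limit only through the control shRNA libraries, so the stricter filter adds no support. CXCL8 and IL11, among the members lower with nutlin-3a, and MMP2, among those higher, also had a library under 30. The members' median difference was 0.07 with nutlin-3a and -0.04 untreated, beside 0.03 and 0.02 over all measured genes. For the response difference, which is the nutlin-3a difference of the LIMA1 shRNA line minus that of the control line, 0 of 26 members passed 1 in either direction, against 1.27% of all genes on the high side and 0.816% on the low side.

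**Figure D1:**
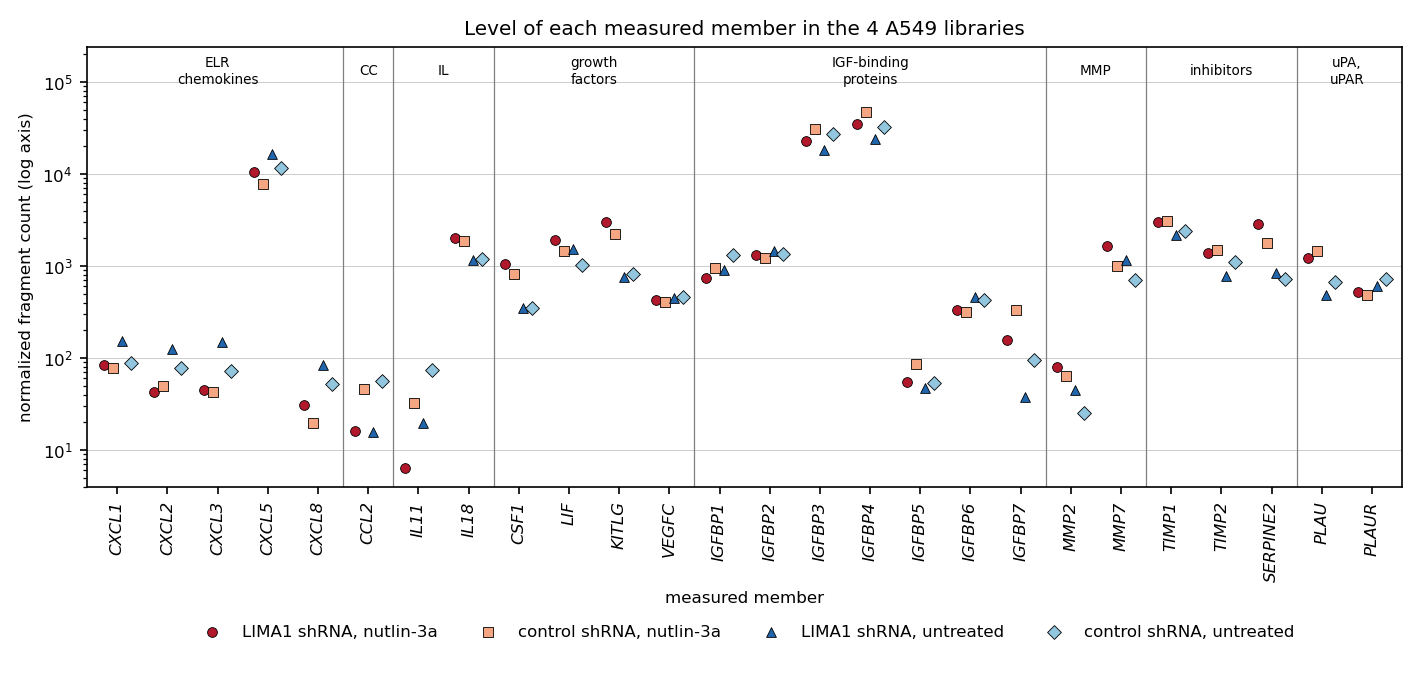
Normalized fragment count (log axis) of the 26 measured members, ordered by role, with 1 point per library: LIMA1 shRNA with nutlin-3a (red circles), control shRNA with nutlin-3a (orange squares), LIMA1 shRNA untreated (blue triangles) and control shRNA untreated (light blue diamonds). IGFBP3, IGFBP4 and CXCL5 stand above the others in every library, and most of the inflammatory chemokines lie near or under 150.

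Levels of different genes were compared per kilobase of the longest coding transcript in GENCODE 29, an annotation on another build than the files. In untreated control shRNA cells IGFBP4 stood highest, at 14836 normalized counts per kilobase, then IGFBP3 at 11343 and CXCL5 at 4598. TIMP1 followed at 2181 and IL18 at 1043 normalized counts per kilobase. On the same scale CXCL1 was at 80.8, CXCL8 at 30.4 and IL11 at 32.2. Among the members' RNAs in this library, 2 IGF-binding protein genes and 1 chemokine gene stood highest, with CXCL1, CXCL8 and IL11 far lower. Secreted protein was not measured.

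Many of the best-known inflammatory members were close to absent. CSF2, a growth factor of granulocytes and macrophages, MMP3, a matrix protease, and SERPINB2, an inhibitor of plasminogen activators, had 0 fragments in all 4 libraries, which allows up to 3 fragments, or 2.83 to 3.22 normalized counts, a library. CXCL6, CCL5, IL1A, IL6 and CSF3 had at most 3 fragments in any library. IL6 and IL1A are the cytokines most often used as marks of the secretory state: with nutlin-3a IL6 had 0 fragments in both lines, and IL1A had 2.14 normalized counts in LIMA1 shRNA cells and 0 in control shRNA cells. CCL20, a chemokine of lymphocytes and dendritic cells, had at most 3.77, and the collagenase gene MMP1 at most 4.29.

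The chemokines with the ELR amino acid motif act on neutrophils through the receptors CXCR1 and CXCR2. The 6 members of this class lie close together on chromosome 4, per the RefSeq gene table. Their order is CXCL8, CXCL6, CXCL1, CXCL5, CXCL3 and CXCL2. Between them lie the platelet chemokine genes PF4V1, PF4 and PPBP, which are not members. These 3 had at most 15.9 normalized counts in any library, and CXCL6 at most 0.990. CXCL5, in the midst of the row, had at least 7818 in every library.

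The promoters of the measured ELR chemokine genes are shown because these neighbouring genes share a letter pattern that NF-kB is known to bind. Each line gives the 100 bases before the start of the gene, 5′ to 3′ on the gene's strand, from RefSeq on GRCh38.p14, with the NF-kB pattern in capitals. The stretches are chr4:73869293-73869392 on the plus strand for CXCL1, chr4:74099196-74099295 on the minus strand for CXCL2, chr4:74038690-74038789 on the minus strand for CXCL3, chr4:73998678-73998777 on the minus strand for CXCL5 and chr4:73740469-73740568 on the plus strand for CXCL8.
CXCL1: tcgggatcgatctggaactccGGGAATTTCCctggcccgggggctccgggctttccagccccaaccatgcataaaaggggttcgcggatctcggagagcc
CXCL2: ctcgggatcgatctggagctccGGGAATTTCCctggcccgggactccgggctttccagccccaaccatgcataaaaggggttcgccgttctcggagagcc
CXCL3: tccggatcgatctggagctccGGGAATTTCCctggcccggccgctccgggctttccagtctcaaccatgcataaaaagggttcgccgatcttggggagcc
CXCL5: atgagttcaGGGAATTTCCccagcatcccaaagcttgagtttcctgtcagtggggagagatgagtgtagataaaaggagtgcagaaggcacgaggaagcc
CXCL8: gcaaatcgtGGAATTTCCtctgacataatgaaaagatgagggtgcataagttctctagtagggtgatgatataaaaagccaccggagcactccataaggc

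In windows of 300 bases, from 250 before to 50 after the start, 29 of the 42 members had a promoter in the RefSeq table. A pattern of GGGA, any base and then TTTCC, searched on both strands, was in 7 of the 29 (CXCL1, CXCL2, CXCL3, CXCL5, CXCL6, IL6 and IL32) and in 0.558% of all 35116 promoters of that length. The shorter pattern GGAATTTCC, which overlaps it and was added after the first search, was in CXCL8, ICAM1 and the 5 CXCL genes just named, and in 0.461% of all promoters. So all 6 ELR chemokine genes among the members held the shorter pattern. They did so whether they had at least 7818 normalized counts, as CXCL5 did, or at most 0.990, as CXCL6 did. Over the 250 bases before the start, CXCL1 and CXCL3 were 81.4% identical, CXCL2 and CXCL3 73.4%, and CXCL1 and CXCL2 70.1%. CXCL8 was 43.9% to 47.9% identical to the other 4. The AP-1 pattern TGANTCA was in 7 of the 29 members, among them CXCL8, IL11, MMP7 and PLAUR, and in 7.71% of all promoters. A match describes the letters and does not show that a factor is bound.

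All 5 measured ELR chemokine genes were lower with nutlin-3a than without it in both cell lines, by varying amounts, with CXCL1 in control shRNA cells within counting error. Of all 12742 measured genes 6568 were below 0 with nutlin-3a in LIMA1 shRNA cells and 6567 in control shRNA cells. CXCL8, which encodes interleukin 8, had 31.1 normalized counts in LIMA1 shRNA cells and 19.9 in control shRNA cells with nutlin-3a, against 83.1 and 51.8 untreated. Both nutlin-3a libraries were below both untreated ones. CXCL8 reached a mean of 30 only with its untreated libraries, so this order supports nothing. The difference was -1.39 in LIMA1 shRNA cells (0.374-fold, counting interval 0.236 to 0.577) and -1.34 in control shRNA cells (0.383-fold, 0.217 to 0.649). CXCL5, a neutrophil attractant of epithelial cells, had 10463 and 7818 normalized counts in LIMA1 shRNA and control shRNA cells with nutlin-3a, against 16519 and 11670 untreated. Its differences of -0.66 in LIMA1 shRNA cells and -0.58 in control shRNA cells were under the size for a call, although far outside counting error.

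CXCL1, CXCL2 and CXCL3, are closely related chemokines also known as the GRO genes. CXCL3 had 45.0 and 42.7 normalized counts in LIMA1 shRNA and control shRNA cells with nutlin-3a, against 150.4 and 72.6 untreated. CXCL2 had 42.9 and 49.6 with nutlin-3a, against 124.7 and 78.0 untreated. CXCL1 had 84.7 and 77.4 with nutlin-3a, against 153.4 and 88.6 untreated. In each of the 3 genes untreated LIMA1 shRNA cells were highest, as they were for CXCL5 and CXCL8, which were higher with the LIMA1 hairpin untreated by 0.50 and 0.67. With nutlin-3a the 3 GRO genes were close between the cell lines, while CXCL5 and CXCL8 were higher with the LIMA1 hairpin there too, by 0.42 and 0.62.

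With nutlin-3a the GRO genes were lower in LIMA1 shRNA cells by 1.72 for CXCL3 (0.299-fold, counting interval 0.207 to 0.424), by 1.52 for CXCL2 (0.344-fold, 0.235 to 0.494) and by 0.85 for CXCL1. In control shRNA cells the differences were -0.75, -0.64 and -0.19 for CXCL3, CXCL2 and CXCL1, and the counting interval of CXCL1 included no difference. In untreated cells CXCL3 was higher by 1.04 with the LIMA1 hairpin (2.07-fold, 1.57 to 2.76), a call that ended with a pseudocount of 10 (0.96) or equal library totals (0.99). CXCL1 was at 0.78 and CXCL2 at 0.67 in that comparison. The nutlin-3a difference in LIMA1 shRNA cells and the untreated comparison share the untreated LIMA1 shRNA library, so both rest on its high values. The response difference was -0.97 for CXCL3 (counting interval -1.75 to -0.20), -0.88 for CXCL2 (-1.65 to -0.12) and -0.66 for CXCL1 (-1.27 to -0.05), and -0.08 for CXCL5 and -0.05 for CXCL8. The 3 GRO genes have similar transcripts, and 1 CXCL2 value was not a whole number of fragments, so reads may be split among them.

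**Figure D2:**
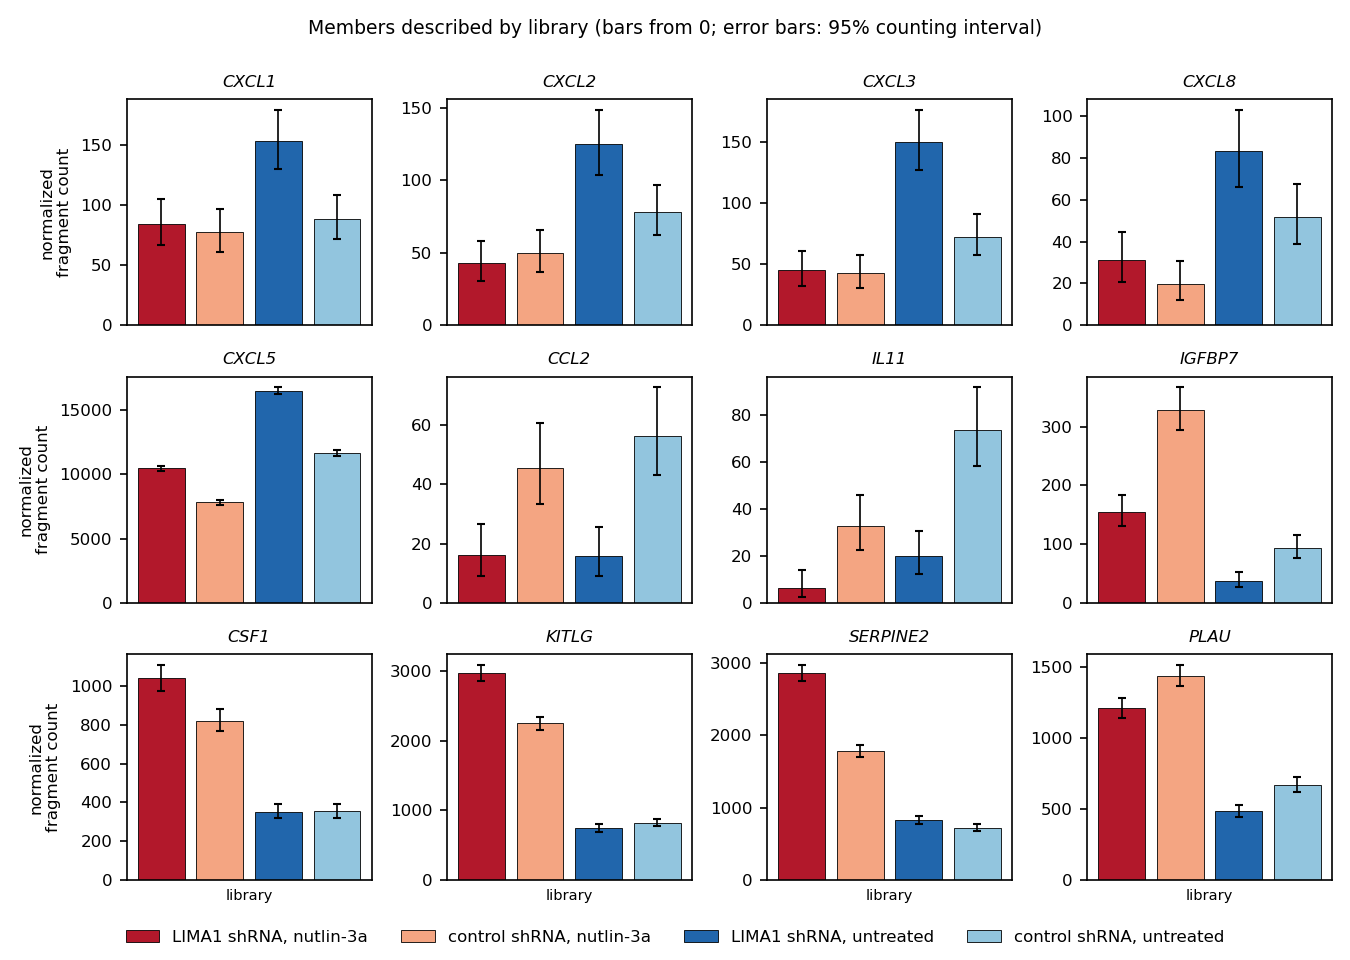
Normalized fragment counts of 12 members by library, with bars from 0 and error bars for the exact 95% Poisson interval of the fragment count; each panel has its own axis. CXCL1, CXCL2 and CXCL3 are highest in untreated LIMA1 shRNA cells, CCL2, IL11 and IGFBP7 are lower with the LIMA1 hairpin at both treatments, and CSF1, KITLG, SERPINE2 and PLAU are higher in both nutlin-3a libraries. For CCL2 and IL11 this direction was set by the filter, which they passed only through the control shRNA libraries.

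CCL2, the main monocyte attractant, differed between the cell lines and hardly with treatment. It had 16.1 normalized counts in LIMA1 shRNA cells and 45.7 in control shRNA cells with nutlin-3a, and 15.8 and 56.6 untreated. Both LIMA1 shRNA libraries were below both control shRNA libraries. CCL2 passed the filter only through the control shRNA libraries, so it had to be lower with the LIMA1 hairpin, and this direction supports nothing. The difference was -1.45 with nutlin-3a (0.352-fold, counting interval 0.183 to 0.642) and -1.77 untreated (0.280-fold, 0.151 to 0.492).

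IL11, a cytokine of the interleukin 6 family tied to stromal cells and bone, was lower with the LIMA1 hairpin and lower with nutlin-3a. It had 6.43 normalized counts in LIMA1 shRNA cells and 32.8 in control shRNA cells with nutlin-3a, and 19.8 and 73.5 untreated. LIMA1 shRNA cells with nutlin-3a held the fewest fragments, 6, and untreated control shRNA cells the most, 78. Between the lines the difference was -2.18 with nutlin-3a (0.196-fold, counting interval 0.0673 to 0.475) and -1.84 untreated (0.269-fold, 0.156 to 0.444). The nutlin-3a difference was -1.48 in LIMA1 shRNA cells and -1.14 in control shRNA cells, and both calls ended with a pseudocount of 10, at -0.86 and -0.97.

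The summed level of the 6 fibroblast markers was lowest in LIMA1 shRNA cells with nutlin-3a and highest in untreated control shRNA cells, as for IL11. It was 33.2 normalized counts in LIMA1 shRNA cells and 65.5 in control shRNA cells with nutlin-3a, and 72.2 and 138 untreated; only COL1A1 was measured, and DCN and PDGFRB had at most 3 fragments in any library. The part of these markers in the IL11 and CCL2 values was not tested. In bulk RNA, fewer cells of a type and less RNA per cell cannot be told apart.

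IL18, a cytokine of the interleukin 1 family that epithelial cells store as a precursor, was the interleukin with the highest level and differed in the opposite direction. It had 2027 normalized counts in LIMA1 shRNA cells and 1848 in control shRNA cells with nutlin-3a, against 1170 and 1196 untreated. Both nutlin-3a libraries were above both untreated ones, by 0.79 in LIMA1 shRNA cells and 0.63 in control shRNA cells, which is under the size for a call. IL1B and IL32 were under the limit for a measured gene. IL1B, a main inflammatory cytokine, had 10.7 normalized counts in LIMA1 shRNA cells and 3.97 in control shRNA cells with nutlin-3a, and 0.990 and 2.83 untreated. IL32 had between 16.1 and 24.8.

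Among the growth factors, KITLG and CSF1 were higher with nutlin-3a in both lines. KITLG, the ligand of the receptor KIT on mast cells, melanocytes and blood stem cells, had 2972 normalized counts in LIMA1 shRNA cells and 2247 in control shRNA cells with nutlin-3a, against 750.1 and 828 untreated. The untreated libraries were close to each other and far below both nutlin-3a libraries. The difference was 1.98 in LIMA1 shRNA cells (3.96-fold, counting interval 3.65 to 4.30) and 1.44 in control shRNA cells (2.72-fold, 2.51 to 2.94), and the response difference of 0.54 (0.38 to 0.71) was the highest of the members.

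CSF1, which directs the growth and survival of macrophages, had 1039 normalized counts in LIMA1 shRNA cells and 820 in control shRNA cells with nutlin-3a, against 353.3 and 353.5 untreated. The untreated libraries were equal within counting error. The difference with nutlin-3a was 1.55 in LIMA1 shRNA cells (2.94-fold, 2.60 to 3.33) and 1.21 in control shRNA cells (2.32-fold, 2.05 to 2.63). The receptor of CSF1 on macrophages, CSF1R, had at most 2 fragments in any library. LIF, a cytokine of the interleukin 6 family, was under the size for a call in all comparisons, at 1915 and 1444 normalized counts in LIMA1 shRNA and control shRNA cells with nutlin-3a, against 1535 and 1021 untreated. VEGFC, a growth factor of lymphatic vessels, lay between 408 and 463 in all 4 libraries, with every counting interval including no difference.

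**Figure D3:**
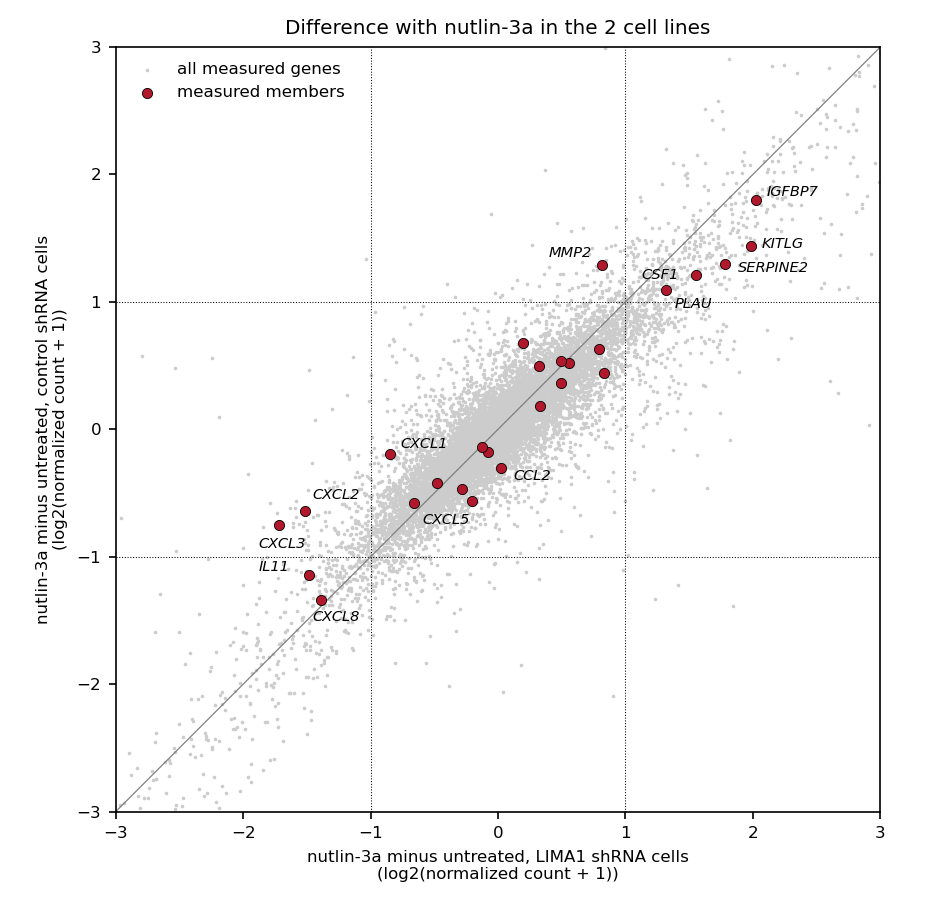
Nutlin-3a minus untreated difference in LIMA1 shRNA cells (x axis) and control shRNA cells (y axis), on the log2(normalized count + 1) scale, for the 26 measured members (red) over all measured genes (grey); dotted lines mark 1 and -1, the solid line marks equal responses, and genes beyond 3 in size are outside the frame. CSF1, KITLG, IGFBP7, SERPINE2 and PLAU lie in the upper right corner, CXCL8 and IL11 in the lower left, and CXCL2 and CXCL3 left of the line.

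All 7 IGF-binding protein genes were measured, and they did not move as 1 block. IGFBP7, which binds IGF weakly and has been tied to senescence, had 155 normalized counts in LIMA1 shRNA cells and 329 in control shRNA cells with nutlin-3a, against 37.3 and 94.1 untreated. Both nutlin-3a libraries were above both untreated ones, and LIMA1 shRNA cells were below control shRNA cells at each treatment. The nutlin-3a difference was 2.03 in LIMA1 shRNA cells (4.16-fold, counting interval 2.87 to 6.08) and 1.80 in control shRNA cells (3.50-fold, 2.79 to 4.42), the highest of the members in both lines. Between the lines it was -1.08 with nutlin-3a (0.472-fold, 0.385 to 0.575) and -1.31 untreated (0.397-fold, 0.267 to 0.585). IGFBP7 values were not all whole numbers of fragments, so it may share reads with an overlapping gene.

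IGFBP3 and IGFBP4 carried most of the family's RNA. IGFBP3, the main carrier of IGF in blood and a known p53 target gene, had 22573 normalized counts in LIMA1 shRNA cells and 31128 in control shRNA cells with nutlin-3a, against 17999 and 27359 untreated. IGFBP4, an inhibitor of IGF action, had 35233 and 46750 with nutlin-3a, against 23971 and 32640 untreated. Both were higher with nutlin-3a and lower with LIMA1 shRNA, with no difference reaching 1: IGFBP3 was at 0.33 and 0.19 with nutlin-3a in LIMA1 shRNA and control shRNA cells, and IGFBP4 at 0.56 and 0.52. Between the lines IGFBP3 was at -0.46 with nutlin-3a and -0.60 untreated, and IGFBP4 at -0.41 and -0.45.

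IGFBP1, IGFBP2 and IGFBP6, other binding proteins of the family, were lower with nutlin-3a in both lines, by at most 0.48. IGFBP1 was at -0.28 in LIMA1 shRNA cells and -0.47 in control shRNA cells, IGFBP2 at -0.13 and -0.14 and IGFBP6 at -0.48 and -0.42. IGFBP5 was low, at 54.7 normalized counts in LIMA1 shRNA cells and 86.4 in control shRNA cells with nutlin-3a, against 47.5 and 53.7 untreated. In the LIMA1 shRNA minus control shRNA comparison 5 of the 7 genes were below 0 at both treatments, with a median of -0.41 with nutlin-3a and -0.45 untreated. Of all 12742 measured genes 5783 were below 0 in that comparison with nutlin-3a and 5808 untreated.

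Of the 6 matrix metalloproteinase genes 2 were measured. MMP7, a protease of epithelial cells, had 1650 normalized counts in LIMA1 shRNA cells and 1011 in control shRNA cells with nutlin-3a, against 1172 and 697 untreated. It was higher with LIMA1 shRNA at both treatments, by 0.71 and 0.75, and higher with nutlin-3a in LIMA1 shRNA and control shRNA cells, by 0.49 and 0.54, all under the size for a call. MMP2, a gelatinase, had 79.3 and 63.5 normalized counts in LIMA1 shRNA and control shRNA cells with nutlin-3a, against 44.5 and 25.5 untreated. Its nutlin-3a difference reached 1 in control shRNA cells, at 1.29 (2.50-fold, counting interval 1.57 to 4.07), and was 0.82 in LIMA1 shRNA cells (1.78-fold, 1.21 to 2.64), and the response difference of -0.47 was within counting error (-1.39 to 0.41). MMP14, a membrane-bound protease that activates MMP2, was under the limit, at 20.4 and 19.9 with nutlin-3a in LIMA1 shRNA and control shRNA cells, against 12.9 and 7.54 untreated. MMP10, a stromelysin, had 0 and 6.95 normalized counts in LIMA1 shRNA and control shRNA cells with nutlin-3a, and 0.990 and 6.60 untreated.

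The inhibitors of proteases were on the high side with nutlin-3a. SERPINE2, which encodes protease nexin 1, an inhibitor of thrombin and urokinase, had 2862 normalized counts in LIMA1 shRNA cells and 1780 in control shRNA cells with nutlin-3a, against 830 and 724 untreated. The difference was 1.78 in LIMA1 shRNA cells (3.45-fold, counting interval 3.19 to 3.73) and 1.30 in control shRNA cells (2.46-fold, 2.26 to 2.68). The response difference was 0.49 (0.32 to 0.66), outside counting error and under 1. TIMP1 and TIMP2, inhibitors of metalloproteinases, were higher with nutlin-3a by 0.50 and 0.83 in LIMA1 shRNA cells and by 0.36 and 0.44 in control shRNA cells, under the size for a call.

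In the plasminogen system, the protease and its receptor differed in opposite directions with nutlin-3a. PLAU, which encodes urokinase, had 1214 normalized counts in LIMA1 shRNA cells and 1440 in control shRNA cells with nutlin-3a, against 485 and 673 untreated. The difference was 1.32 in LIMA1 shRNA cells (2.50-fold, counting interval 2.25 to 2.79) and 1.10 in control shRNA cells (2.14-fold, 1.96 to 2.34), from values that were not all whole numbers of fragments. PLAUR, the cell-surface receptor of urokinase, had 523 and 487 normalized counts in LIMA1 shRNA and control shRNA cells with nutlin-3a, against 604 and 722 untreated, with differences of -0.21 and -0.57.

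PLAT, which encodes the tissue plasminogen activator, was under the limit for a measured gene and differed by both factors. It had 49.3 normalized counts in LIMA1 shRNA cells and 16.9 in control shRNA cells with nutlin-3a, against 15.8 and 4.71 untreated. With nutlin-3a it was 3.11-fold higher in LIMA1 shRNA cells (counting interval 1.73 to 5.89) and 3.58-fold higher in control shRNA cells (1.27 to 12.4). With LIMA1 shRNA it was 2.92-fold higher with nutlin-3a (1.64 to 5.44) and 3.36-fold higher untreated (1.18 to 11.7). ICAM1, an adhesion molecule for leukocytes, had 6.43 and 11.9 normalized counts in LIMA1 shRNA and control shRNA cells with nutlin-3a, and 3.96 and 2.83 untreated.

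The 2 nutlin-3a comparisons share no library. The 5 members called higher in LIMA1 shRNA cells (CSF1, KITLG, IGFBP7, SERPINE2 and PLAU) were all among the 6 called higher in control shRNA cells, the sixth being MMP2. CXCL8 and IL11, the 2 called lower in control shRNA cells, made up 50.0% of the 4 called lower in LIMA1 shRNA cells. Both genes reached a mean of 30 only with their untreated libraries, so this sharing supports nothing. With a mean of at least 150, 0 members were called lower with nutlin-3a in either line. Of the 26 members 25 differed in the same direction in both lines, the exception being CCL2 at 0.02 in LIMA1 shRNA cells and -0.30 in control shRNA cells. The 2 comparisons between the lines share no library either, and 20 of 26 members had the same direction. CCL2, IL11 and IGFBP7 were the 3 called lower at each treatment. CCL2 and IL11 passed the filter only through the control shRNA libraries, so their shared call supports nothing. Sharing of directions and calls was common among all measured genes. With nutlin-3a 86.0% of them differed in the same direction in both lines, beside 96.2% of the members. Of all genes called higher, 64.5% of those in LIMA1 shRNA cells and 84.8% of those in control shRNA cells were called in both lines, and of those called lower 75.2% and 81.1%. Between the lines 72.2% of all genes had the same direction at both treatments, beside 76.9% of the members, and of all genes called lower 49.4% of those with nutlin-3a and 46.7% of those untreated were called at both.

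**Figure D4:**
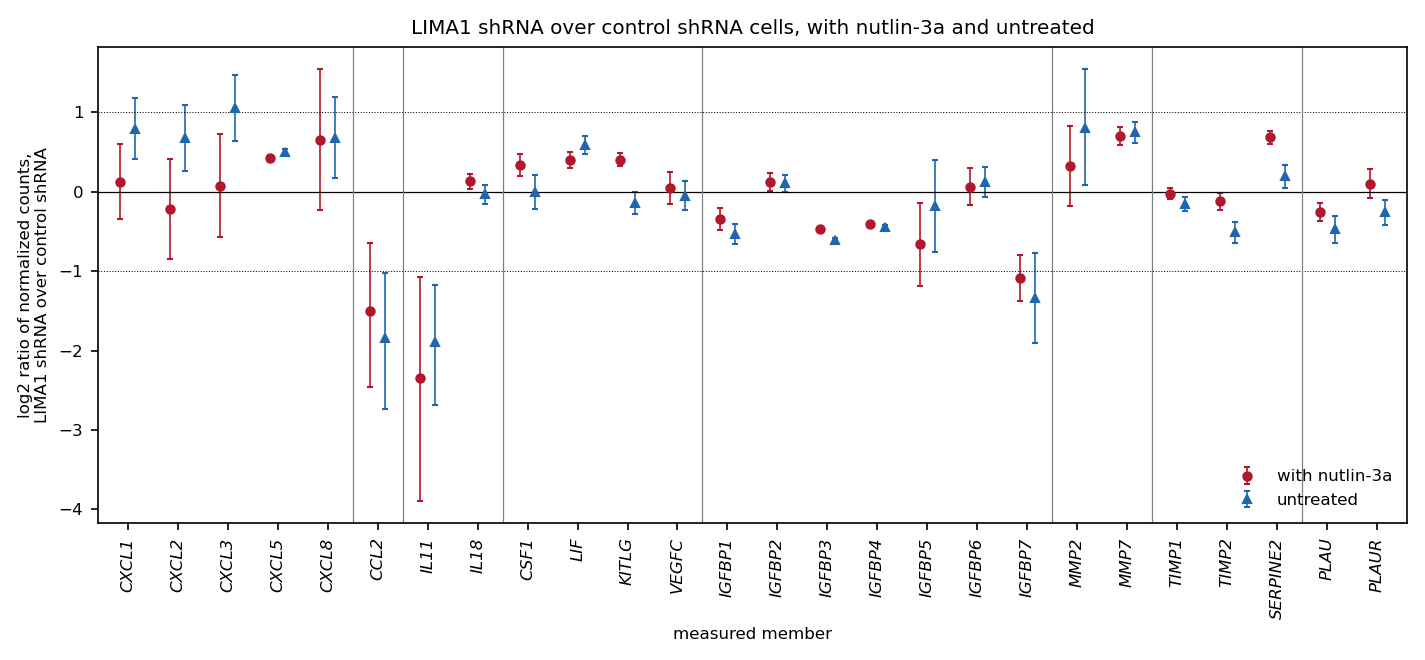
Log2 ratio of normalized counts, LIMA1 shRNA over control shRNA cells, for the 26 measured members with nutlin-3a (red circles) and untreated (blue triangles); error bars are exact 95% intervals for counting error, and dotted lines mark 1 and -1. CCL2, IL11 and IGFBP7 lie below -1 at both treatments, and CXCL3 passes 1 in untreated cells. CCL2 and IL11 passed the filter of a mean of at least 30 only through the control shRNA libraries.

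Of 26 listed regulators in the NF-kB and C/EBP pathways 25 were measured, and their median difference with nutlin-3a was -0.01 in LIMA1 shRNA cells and 0.02 in control shRNA cells. With nutlin-3a 1 was higher and 0 lower in LIMA1 shRNA cells, and 0 were higher or lower in control shRNA cells, against the 7.29% and 6.08% of all genes in LIMA1 shRNA cells and the 5.54% and 5.64% in control shRNA cells given above. Beyond counting error 12 of the 25 differed in the same direction in both lines. The share of all genes doing so was not computed. REL, an NF-kB subunit, was at -0.72 in LIMA1 shRNA cells and -0.53 in control shRNA cells, and TRAF2, an adaptor, at -0.61 and -0.56. NFKBIZ, TNIP1 and NFKBIA, which encode modulators or inhibitors of NF-kB, were at 0.59, 0.64 and 0.65 in LIMA1 shRNA cells and at 0.68, 0.55 and 0.48 in control shRNA cells. IKBKB, a kinase that activates NF-kB, was at 0.43 and 0.52. NFKBIB, which encodes another inhibitor, was at -0.13, within counting error, and -0.16. The list showed no common direction: 12 of the 25 were above 0 and 13 below in LIMA1 shRNA cells, and 13 and 12 in control shRNA cells. RELA, the main activating subunit of NF-kB, had 1149 and 1217 normalized counts in LIMA1 shRNA and control shRNA cells with nutlin-3a, against 1337 and 1317 untreated. CEBPB, which encodes C/EBP-beta, lay between 1341 and 1365 in all 4 libraries.

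TRAF1 and TMEM173 reached 1. TRAF1, an adaptor of the tumour necrosis factor receptors, had 55.7 and 57.6 normalized counts in LIMA1 shRNA and control shRNA cells with nutlin-3a, against 14.8 and 36.8 untreated. Untreated LIMA1 shRNA cells were the low library, with differences of 1.84 for nutlin-3a in LIMA1 shRNA cells and -1.25 for LIMA1 shRNA in untreated cells, which share it. TMEM173, which encodes the innate DNA-sensing adaptor STING, had 113 and 28.8 normalized counts in LIMA1 shRNA and control shRNA cells with nutlin-3a, and 56.4 and 25.5 untreated. It was higher with LIMA1 shRNA by 1.93 with nutlin-3a and 1.12 untreated. Both control shRNA libraries were under 30 normalized counts, so TMEM173 passed the filter only through the LIMA1 shRNA libraries. It had to be higher there, and these 2 differences support nothing.

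Of 23 receptor genes for the members 13 were measured. CXCR1 and CXCR2, the receptors of the ELR chemokines, had at most 3 fragments in any library. With nutlin-3a 2 receptors were lower in both lines, against 6.08% of all genes in LIMA1 shRNA cells and 5.64% in control shRNA cells: FLT4, the VEGFC receptor, at -1.52 in LIMA1 shRNA cells and -1.70 in control shRNA cells, and IL18R1, a chain of the IL18 receptor, at -1.43 and -1.49. IL18R1 had a mean of 30.6, just over the limit, and passed it through untreated cells, with 10.7 and 20.8 normalized counts in LIMA1 shRNA and control shRNA cells with nutlin-3a, against 30.7 and 60.3 untreated. IL1R2, a decoy receptor that takes up interleukin 1, was lower with LIMA1 shRNA, by 1.08 with nutlin-3a and by 0.86 untreated. IL6ST, the signalling chain shared by the IL6, IL11 and LIF receptors, had between 3461 and 5552 normalized counts.

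Of 12 genes followed as marks of the arrested state, some of them genes of dividing cells, 11 were measured. With nutlin-3a 1 was higher in each line, CDKN1A, against 7.29% of all genes in LIMA1 shRNA cells and 5.54% in control shRNA cells. In each line 7 were lower, against 6.08% of all genes in LIMA1 shRNA cells and 5.64% in control shRNA cells. LMNB1, a nuclear lamina gene whose loss is a common mark of senescence, was at -3.67 in LIMA1 shRNA cells and -3.39 in control shRNA cells, and HMGB2, a chromatin protein gene, at -3.67 and -3.49. The highest difference of the members was 2.03. CDKN2B, an inhibitor of cyclin-dependent kinases, had 0 fragments in every library.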

How the data were processed

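The authors deposited 1 signal value per gene and library, and the build hg19 with Cuffnorm 2.2.1, Bowtie2 2.0.12 and bcl2fastq 1.8.3 stand, with no role or order, in the list of tools per the submitters' processing notes; no source used here gives the annotation. From the values, they are fragments divided by 1 size factor per library, not by gene length. Between 0.5 and 1000 fragments, 85.5% to 86.3% of values were within 0.1 of a whole number, under the 95% needed for a count test. A gene with any other value there (3 of the measured members, CXCL2, IGFBP7 and PLAU) may share reads. The members and lists were chosen with earlier results of these data known.

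Each library's group was read from its title, where si stands for the shRNA of the protocols. Every member is accounted for, and measured members reaching 1 in size in a pairwise comparison are given in every library. Fold intervals are exact Clopper-Pearson 95% intervals of rounded fragments, and intervals of a response difference are exact conditional ones, or on the log scale above 3000 fragments. Reads carry no molecular identifiers. The steps were tested on simulated data. Python 3.11.15, numpy 2.4.6, pandas 2.3.3, scipy 1.17.1 and matplotlib 3.10.9 were used. Other pseudocounts, scalings, filters and sizes were tried. 1 gene of the lists is not reported here.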

Additional observations from a re-analysis of the deposited data

Results flagged for a closer look

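KITLG differed between the cell lines in opposite directions at the 2 treatments, with both values outside counting error. LIMA1 shRNA minus control shRNA was 0.40 with nutlin-3a and -0.14 untreated, on the log2(normalized count + 1) scale. The untreated value is at the edge of its counting interval, and the change of direction was not tested, since each group has 1 library.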

How the results depend on the processing

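Upper-quartile scaling moved no count of members by more than 1.5 times, and neither scaling nor the pseudocount reversed a called member. With equal library totals 0 members were higher with LIMA1 shRNA untreated, as with a pseudocount of 10, which also left 1 lower with nutlin-3a in control shRNA cells. With a mean of at least 150, which leaves 18 members, 0 were lower with nutlin-3a in LIMA1 shRNA cells and 0 in control shRNA cells. In that setting, with LIMA1 shRNA 1 was lower with nutlin-3a, 1 was lower untreated and 0 were higher untreated. The lower member was IGFBP7, whose mean of 154 passed that limit only through the control shRNA libraries. With no filter, 39 members counted: 9 were higher with nutlin-3a in LIMA1 shRNA cells, 6 with LIMA1 shRNA under nutlin-3a and 4 untreated, and the response difference passed 1 upward in 5 and downward in 3, from genes with few fragments. At 1.5-fold, 8 were higher with nutlin-3a in LIMA1 shRNA cells and 4 lower in control shRNA cells, 3 were higher with LIMA1 shRNA under nutlin-3a and 7 untreated, and 3 had a lower response. Without genes that may share reads, a setting chosen after seeing the data, 3 were higher with nutlin-3a in LIMA1 shRNA cells. The share of all genes called was not computed at any of these settings, so these counts cannot be set against it. No median of the members moved beyond its order-statistic interval. No paired analysis was possible because each group has 1 library. Depth limits the members under 100 normalized counts.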

Other observations

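Secreted factors outside the member list, from a list of 40 genes tied to senescence, gave 24 measured genes. With nutlin-3a 2 of the 24 were higher in each line, against 7.29% of all genes in LIMA1 shRNA cells and 5.54% in control shRNA cells. In each line 1 was lower, against 6.08% of all genes in LIMA1 shRNA cells and 5.64% in control shRNA cells. The lower gene was EREG, a ligand of the epidermal growth factor receptor. It had 437 normalized counts in LIMA1 shRNA cells and 391 in control shRNA cells with nutlin-3a, against 1242 and 887 untreated. The median difference of the list with nutlin-3a was 0.19 in LIMA1 shRNA cells and 0.23 in control shRNA cells, and 0 of the 24 reached 1 between the lines at either treatment.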
